A study of Mus musculus with 21 samples.

Results

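Glycolysis and hypoxia response genes were followed as a set of 31 genes listed by name, with no measured value in the rule but with earlier results of these data known, in prostate tumours of mice that model advanced disease. Of the 31 genes, 28 were named in the probe table. The other 3 (Hk2, Gpi1 and Eno1) were not and are not analysed here. Of the 28, 26 were bright enough to be tested, out of 12570 genes tested on the arrays in all. Bnip3, a mitochondrial protein that marks mitochondria for removal, was detected (brighter than the array's noise) on 0 of the 21 arrays, and Higd1a, which stabilises respiratory supercomplexes, on 2 of them, so neither was tested. Each gene was read by its brightest probe.

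The study compared tumours of the anterior prostate between 2 genotypes, named NP and NPK in the labels, and between stages of disease, in work on the transcription factor ETV4 under joint PI3-kinase and RAS signalling. NP tumours had 8 arrays, and NPK tumours had 8 arrays with no stage in the labels, 3 arrays at 1 month (early) and 2 arrays at 3 months (late). The labels spell out no allele, no Cre driver, no strain and no age, so the groups are described by those names alone. Each sample has its own number, but nothing says that the samples are from separate animals, and p-values therefore measure the spread between these samples.

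Glycolysis splits glucose into pyruvate in the cytosol and yields ATP without oxygen, and lactate dehydrogenase then turns pyruvate into lactate. Hypoxia-inducible factors (HIF) are dimers of an oxygen-labile alpha subunit and the stable partner ARNT. In oxygen, prolyl hydroxylases of the EGLN family mark the alpha subunit for binding by the VHL protein and for breakdown. In low oxygen the dimer stands, binds DNA at the core letters ACGTG or GCGTG and raises transcription of most glycolytic enzymes, of VEGF and of carbonic anhydrase. Normal prostate epithelium is known for citrate secretion rather than for high glycolysis.

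Promoter sequence was read for these genes because members of the list are textbook HIF targets that did not move as a block in the data below. RefSeq sequence upstream of the start site (250 bases, GRCm38.p6) was matched for 30 of the 31 listed genes, 10 of them with several starts. The 6 windows printed here belong to the 5 members that passed the test between NPK and NP and to Ankrd37, which had the largest fall of a hypoxia member at 1 month. Each runs 5′ to 3′ towards the start site, and capitals mark every ACGTG or GCGTG on either strand (CACGT and CACGC on the strand shown). The windows are chr13:6648772-6649021 on the minus strand for Pfkp, chr10:59951771-59952020 on the minus strand for Ddit4, chr11:54100674-54100923 on the plus strand for P4ha2, chr11:78322823-78323072 on the plus strand for Aldoc (its most upstream start), chr4:43506776-43507025 on the plus strand for Car9 and chr8:45999851-46000100 on the minus strand for Ankrd37. The windows of Pfkp and Ankrd37 belong to the 1 start the promoter table gives for each, which lies 289 and 564 bases inside the upstream limit of the annotated gene, so they are not the sequence before the outermost start.
Pfkp: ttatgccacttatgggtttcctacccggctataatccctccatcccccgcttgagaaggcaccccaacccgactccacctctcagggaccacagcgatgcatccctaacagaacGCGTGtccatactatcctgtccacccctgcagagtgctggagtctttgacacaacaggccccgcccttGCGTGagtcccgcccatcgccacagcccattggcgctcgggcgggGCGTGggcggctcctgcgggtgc
Ddit4: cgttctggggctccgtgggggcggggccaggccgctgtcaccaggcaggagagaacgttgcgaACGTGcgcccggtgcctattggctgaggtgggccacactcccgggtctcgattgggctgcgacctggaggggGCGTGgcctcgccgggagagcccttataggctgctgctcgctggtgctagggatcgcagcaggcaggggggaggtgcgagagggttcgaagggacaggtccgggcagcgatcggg
P4ha2: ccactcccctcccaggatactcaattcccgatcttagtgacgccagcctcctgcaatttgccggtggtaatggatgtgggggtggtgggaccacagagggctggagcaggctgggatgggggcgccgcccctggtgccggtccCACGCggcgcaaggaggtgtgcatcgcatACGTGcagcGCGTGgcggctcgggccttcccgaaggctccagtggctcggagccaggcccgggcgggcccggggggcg
Aldoc: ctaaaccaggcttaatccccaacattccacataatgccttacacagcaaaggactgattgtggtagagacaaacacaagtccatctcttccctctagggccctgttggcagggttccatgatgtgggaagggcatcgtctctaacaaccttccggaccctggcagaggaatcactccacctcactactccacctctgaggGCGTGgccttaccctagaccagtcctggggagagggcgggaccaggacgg
Car9: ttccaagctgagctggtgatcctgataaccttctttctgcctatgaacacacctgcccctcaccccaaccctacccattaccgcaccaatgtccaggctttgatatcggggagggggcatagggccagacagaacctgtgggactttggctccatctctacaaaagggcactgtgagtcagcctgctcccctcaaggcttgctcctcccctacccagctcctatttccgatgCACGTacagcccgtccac
Ankrd37: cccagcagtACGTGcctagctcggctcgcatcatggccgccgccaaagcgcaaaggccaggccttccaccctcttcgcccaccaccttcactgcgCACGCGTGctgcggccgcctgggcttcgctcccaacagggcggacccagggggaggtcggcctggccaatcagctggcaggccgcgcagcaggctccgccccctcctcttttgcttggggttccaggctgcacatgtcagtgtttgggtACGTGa
Members that were higher and members that were lower in NPK both carried these letters. Pfkp held 3 copies of GCGTG and 0 of ACGTG, Aldoc held 1 copy of GCGTG, and Car9 held 1 copy of ACGTG at 18 bases before the start. Ankrd37 held 2 copies of each motif, the nearest at 6 bases before the start, and Ddit4 held 1 of each. ACGTG, which also lies inside the E box CACGTG, was present in 44.4% of the members' 45 windows against 16.6% of all 32851 windows of this length. Either motif was present in 77.8% of the members' windows against 38.6% of all. A match is a description of these letters only.

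Before the comparisons, the arrays themselves need a description. Probes detected per array numbered 19063 to 20405 in NP, 15855 to 18226 in NPK, 19458 to 20138 at 1 month and 19489 to 19600 at 3 months. NP replicates 4 and 5 differed by an SD of 0.130 on the log2 scale, less than any other pair (0.310 for the next), and were counted as 1 sample, so NP has n = 7 below. No chip held both NP and NPK, so chip and genotype cannot be told apart, and the early and late samples lay together on 1 further chip. The 2 arrays at 3 months stood apart: the mean log2 level of 11 luminal and general epithelial markers was 9.10 and 10.01 there against 11.13 to 11.98 on every other sample, and 7 prostate secretory markers were at 6.62 and 7.92. Seminal vesicle markers (8 genes, mean log2 level) were at 4.88 to 8.16 in NP, 6.47 to 14.63 in NPK, 11.03 to 14.52 at 1 month and 5.61 and 7.69 at 3 months. Skeletal muscle markers (11 genes) were at 5.73 to 7.00 in NP, 5.61 to 8.92 in NPK, 9.21 to 9.64 at 1 month and 6.62 and 6.41 at 3 months. These are whole tissue pieces, in which fewer cells of a type and less RNA per cell cannot be told apart.

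**Figure D1:**
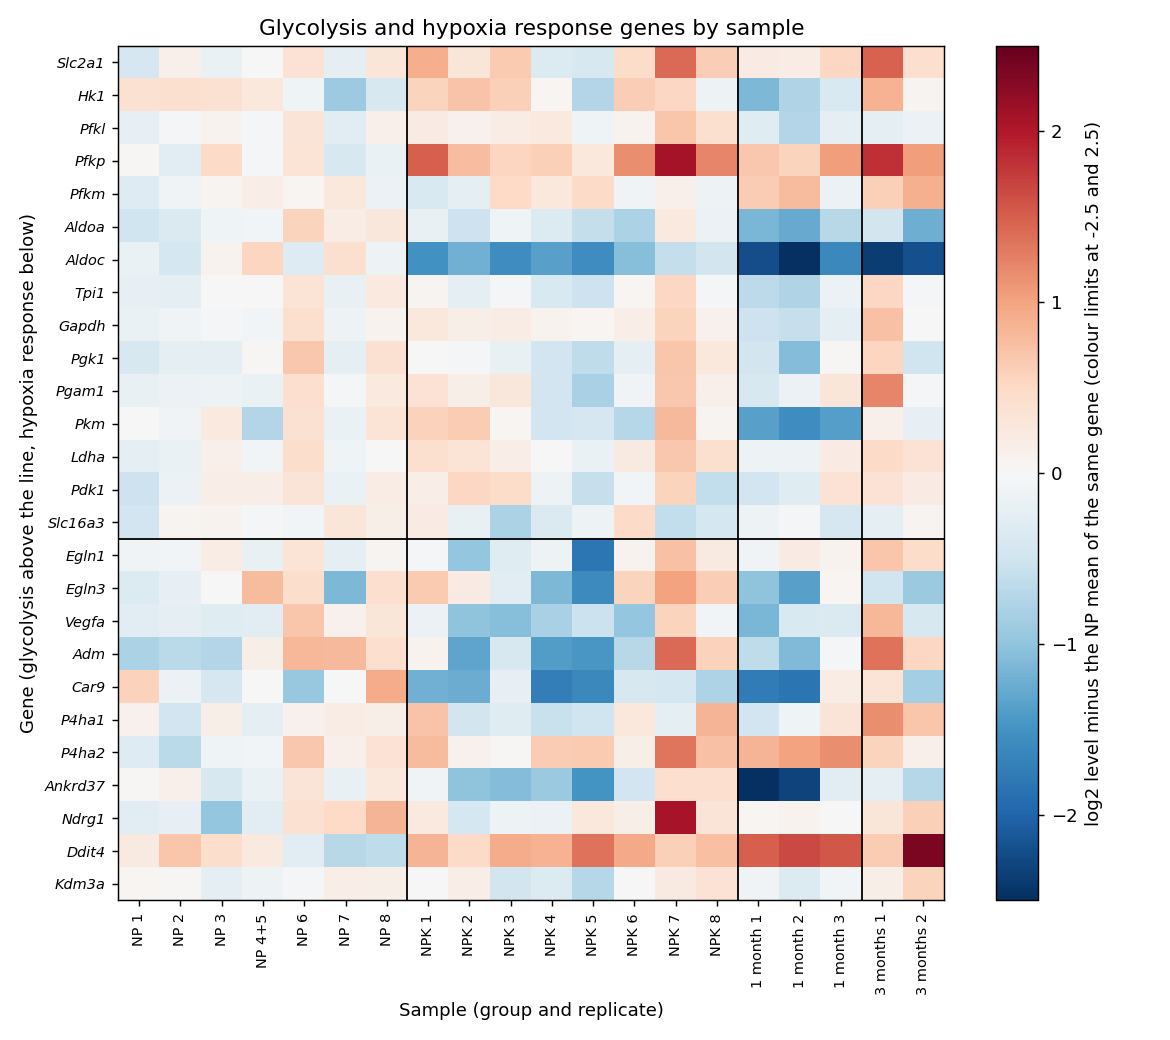
Heat map of the 26 tested members (rows, glycolysis above the line and hypoxia response below) in 20 samples (columns, NP replicates 4 and 5 as their mean). Colour gives the log2 level minus the NP mean of the same gene, and black lines part the groups. Aldoc is blue in every NPK sample with or without a stage, Ddit4 and P4ha2 are red in most of them, and the column of NPK replicate 7 is red for most genes.

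The question of the main comparison was how NPK tumours differ from NP tumours. The list did not move as a block. Of 26 members, 3 rose (Pfkp, Ddit4 and P4ha2), 2 fell (Aldoc and Car9) and 21 did not pass the test, where 33.3% of all genes tested passed, 15% higher and 18.3% lower. At an unadjusted p under 0.05 (limma) the same counts of 3 higher and 2 lower were found, where 20.2% of all genes were higher and 23.5% lower. The median fitted log2 change of the members was 0.02, against -0.01 for all genes tested, and 14 of 26 members had a change above 0. The member median depended on the chips used. It was -0.18 without the chip of NP replicates 1 to 5 and 0.12 without the chip of NP replicates 6 to 8. Without the chip of NPK replicates 1 to 5 it was 0.26, and on the chips of 1 barcode series 0.36. All genes were at -0.01, -0.01, 0.01 and 0.00 in the same order. When arrays were scaled on their medians instead of by quantiles, all genes shifted to a median of -0.38 and the members to -0.40, so that 0 members rose and 8 fell, with 765 of all genes higher and 5494 lower in place of 1886 and 2300. Genes were tested with limma across all 4 groups, with adjusted p (Benjamini-Hochberg over 12570 genes) under 0.05 as the threshold. Levels are normalized log2 intensities, and changes are differences of group means on that scale.

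Glucose entry and trapping came first in the pathway, and neither of the 2 tested members passed. Slc2a1, the main glucose transporter of most tumours, was at 11.32, 11.74 and 12.11 in NP (lowest, median and highest) and at 11.34, 12.27 and 13.16 in NPK. The groups overlapped, although 5 of 8 NPK samples were above every NP sample, and the fitted log2 change of 0.45 ± 0.24 had an adjusted p of 0.148 (limma). Hk1, the housekeeping hexokinase that traps glucose in the cell, differed by 0.27 on the log2 scale with an adjusted p of 0.411 in the same fit.

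In upper glycolysis a phosphofructokinase rose and an aldolase fell. Pfkp, the platelet-type phosphofructokinase that catalyses the committed step, was at 8.73, 9.09 and 9.61 in NP and at 9.39, 10.08 and 11.19 in NPK (lowest, median and highest). Only the lowest NPK sample lay within the NP range, and 7 of 8 NPK samples were above every NP sample. The fitted log2 change was 1.01 ± 0.23 (SE), a 2.02-fold difference, with an adjusted p of 0.0027 (limma, n = 8 and 7). The other phosphofructokinase genes did not pass: the liver type Pfkl differed by 0.22 (adjusted p = 0.167) and the muscle type Pfkm by 0.07 (adjusted p = 0.769) on the log2 scale.

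Aldoc, the aldolase isoform best known from brain, had the smallest adjusted p of the list. Its log2 level was 10.93, 11.25 and 11.91 in NP and 9.81, 10.08 and 10.91 in NPK (lowest, median and highest). Every NPK sample was below every NP sample, the 1 member below without overlap in this comparison, where 5.22% of all genes were lower and 2.86% higher without overlap. The fitted log2 change was -1.16 ± 0.22 (adjusted p = 0.00068, limma). With the means of the seminal vesicle and skeletal muscle markers as covariates it was -0.62 with an adjusted p of 0.0663, and without the chip of NPK replicates 1 to 5 it was -0.71 with an adjusted p of 0.102. Aldoa, the main aldolase of muscle and most tumours, differed by -0.31 (adjusted p = 0.202), and Tpi1, triose phosphate isomerase, by -0.07 (adjusted p = 0.743).

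None of the 7 tested members of lower glycolysis and of pyruvate and lactate handling passed. Gapdh differed by 0.19, Pgk1 by -0.08, Pgam1 by 0.03 and Pkm by 0.06 on the log2 scale, with adjusted p from 0.225 to 0.931. Ldha, the lactate dehydrogenase subunit that favours lactate production, was at 13.76, 13.92 and 14.42 in NP and 13.82, 14.26 and 14.66 in NPK, a log2 difference of 0.25 ± 0.13 with an adjusted p of 0.130 (limma). Its groups overlapped almost throughout. Pdk1, a pyruvate dehydrogenase kinase, differed by 0.04. Slc16a3, the lactate exporter, was well above background on 1 of 8 NPK arrays and 5 of 8 NP arrays. The limit was higher on the chip of NPK replicates 1 to 5, where replicate 1 had a deposited intensity of 53.3 without passing it. The highest NP array was at 46.2, so no direction is given for Slc16a3. Near-identical processed copies exist for Gapdh, Ldha and other glycolytic genes, and probes may not tell them apart.

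Among the 11 hypoxia members, 2 rose, 1 fell and 8 did not pass. Ddit4, a stress-induced inhibitor of mTOR signalling, was at 10.22, 11.13 and 11.61 in NP and 11.38, 11.76 and 12.27 in NPK (lowest, median and highest). The groups overlapped between the 2 lowest NPK samples and the highest NP sample, and 6 of 8 NPK samples were above every NP sample. The fitted log2 change was 0.84 ± 0.24, a 1.79-fold difference (adjusted p = 0.0110, limma). The NP samples themselves differed by chip, with a mean of 11.31 on the chip of replicates 1 to 5 and 10.37 on the chip of replicates 6 to 8. Without the second of these chips the change was 0.44 with an adjusted p of 0.199, and without the chip of NPK replicates 1 to 5 it was 0.76 with an adjusted p of 0.152.

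P4ha2, a catalytic subunit of the prolyl hydroxylase that matures collagen, was at 9.40, 10.02 and 10.76 in NP and 10.10, 10.73 and 11.42 in NPK. Only 3 of 8 NPK samples were above every NP sample, yet all 8 were above the NP mean. The fitted log2 change was 0.56 ± 0.20 (adjusted p = 0.0432, limma), and the call was lost in 19 of 33 alternative fits. The NP chip means were 9.79 and 10.47: without the chip of NP replicates 1 to 5 the change was 0.17 (adjusted p = 0.649), with median scaling 0.11 (adjusted p = 0.728), and with the chip as a random block the adjusted p was 0.125. The call was also lost without any 1 of NP replicates 1, 2, 3 and 7, the mean of 4 and 5, or NPK replicates 1, 4, 5, 7 and 8 (adjusted p from 0.0568 to 0.0971). Its sister subunit P4ha1 differed by -0.03 (adjusted p = 0.935). Fibroblast markers (9 genes) were also higher in NPK, at 9.48 to 11.53 against 7.84 to 9.37 in NP as mean log2 levels, and their part in the result was not tested.

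Car9, a membrane carbonic anhydrase that exports acid and is widely used as a hypoxia marker, was at 9.32, 10.26 and 11.19 in NP and 8.53, 9.28 and 10.05 in NPK. All 8 NPK samples were below the NP mean and 4 were below every NP sample. The fitted log2 change was -0.95 ± 0.34 (adjusted p = 0.0389, limma), and the call was lost in 16 of 33 alternative fits. Without the chip of NPK replicates 1 to 5 the change was -0.54 (adjusted p = 0.442), with the mean of its 3 probes -0.59 (adjusted p = 0.174), and with the chip as a random block the adjusted p was 0.175. The call was also lost without any 1 of NP replicates 1, 2, 7 and 8, the mean of 4 and 5, or NPK replicates 1, 2, 4 and 5 (adjusted p from 0.0501 to 0.0894). Vegfa, the endothelial growth factor, differed by -0.50 without passing (adjusted p = 0.138). Adm, the vasodilator adrenomedullin, was well above background on 3 of 8 NPK arrays and 7 of 8 NP arrays, and no direction is given for it.

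The remaining hypoxia members did not pass. Ankrd37, an ankyrin-repeat protein and HIF target, differed by -0.53 (adjusted p = 0.242), and 5 of 8 NPK samples were below every NP sample while 2 were above every one. The oxygen sensors Egln1 and Egln3 differed by -0.27 and 0.00, Ndrg1, a stress-response gene, by 0.29, and Kdm3a, a histone demethylase, by -0.09, with adjusted p from 0.447 to 0.997. Of the 5 members that passed, 3 had another probe above the filter, and all 4 such probes had the same sign, the weakest at -0.02 for Car9. Elsewhere probes disagreed: a dimmer probe gave 1.10 for Egln3, 0.62 for Vegfa and -1.24 for Pgam1.

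**Figure D2:**
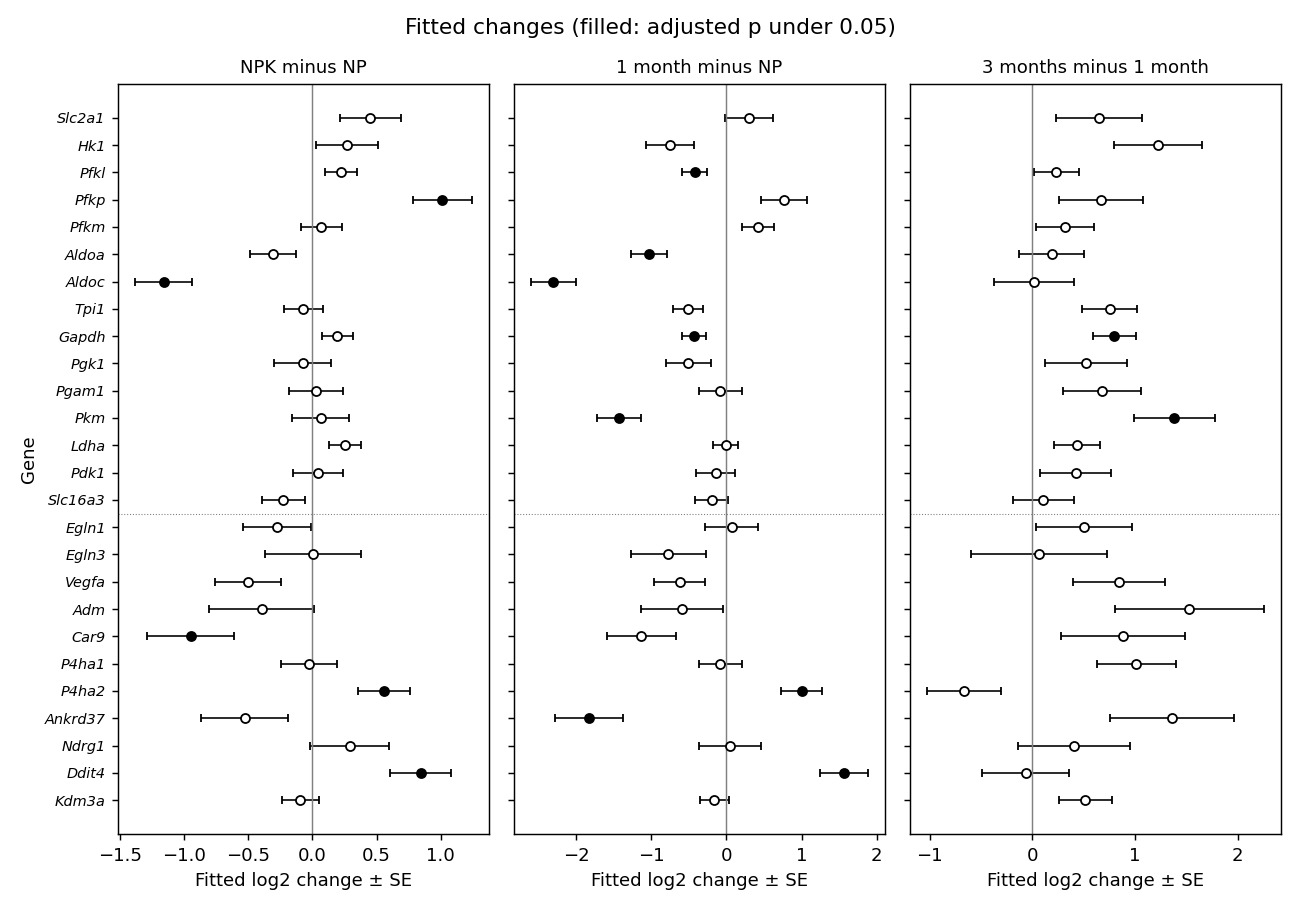
Fitted log2 change ± SE (horizontal axis, a separate scale in each panel) of the 26 members (vertical axis) in the 3 comparisons, with filled points for adjusted p under 0.05. NPK against NP has filled points on both sides of 0, 1 month against NP has 6 of 8 filled points below 0, and 3 months against 1 month has 24 of 26 points above 0.

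The NPK samples were spread over wide ranges, and 1 sample was high for most members. NPK replicate 7 was the highest of the 8 NPK samples for 17 of 26 members (65.4%), against 17.1% of all genes tested, and NPK replicate 5 was the lowest for 15 members (57.7%, against 15.6% of all genes). For Slc2a1 these samples were at 13.16 and 11.34, and for Pfkp at 11.19 and 9.39, the ends of the group's range in each gene. Ndrg1 stood at 12.67 in replicate 7, against at most 10.92 in the other 7 NPK samples. Replicate 7 also had the highest mean of basal epithelial (12.85) and cell cycle markers (8.89) of the NPK samples and the lowest of seminal vesicle (6.47) and fibroblast markers (9.48). Replicate 5 had the lowest basal (11.09) and highest fibroblast mean (11.53). The luminal and general epithelial mean did not follow the basal one: it was 11.22 in replicate 7 and 11.43 in replicate 5, in a group range of 11.13 to 11.69. The part of these cell types in the spread was not tested.

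In NP 1 sample was also high for most members. NP replicate 6 was the highest NP sample for 15 of 26 members (57.7%, against 21.8% of all genes), and NP replicate 1 the lowest for 10 (38.5%, against 11.6%). NP replicate 6 had the highest luminal and general epithelial marker mean of all samples (11.98) and the lowest fibroblast mean (7.84). Its basal epithelial mean was the lowest of the NP samples (11.65).

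The early tumours were set against NP tumours next, a comparison that shares its NP samples with the one above, so the values are given side by side only. At 1 month 6 members fell and 2 rose of 26, with 18 not passing, where 37.5% of all genes passed, 17.8% higher and 19.7% lower. The median log2 change of the members was -0.31, against 0.00 for all genes tested, and with arrays scaled on their medians it was -0.52 and -0.20, with 1433 genes higher and 3327 lower in place of 2234 and 2481. The member median depended on the NP chip here too. It was -0.41 without the chip of NP replicates 1 to 5 and -0.10 without the chip of NP replicates 6 to 8, with all genes at -0.01 and 0.00. All 6 that fell except Ankrd37 are glycolytic enzymes: 5 of 15 glycolysis members fell and 0 rose (at an unadjusted p under 0.05 in limma, 7 were lower and 1 higher, where 24.6% of all genes were lower and 22.9% higher). Without overlap between the groups 3 members were higher and 5 lower, where 18.1% of all genes were higher and 19.6% lower. Of the 8 members that passed, 3 had another probe above the filter, and all 3 such probes had the same sign. Over all 25 other probes of the members, 14 had a change above 0, against 7 of the 26 probes used. A dimmer probe gave 1.75 for Hk1 and 0.82 for Pgk1, where the probe used gave -0.75 and -0.51. With the mean of all detected probes 4 members rose and 7 fell, with a median of -0.11.

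Aldoc was again the member with the largest fall. Its level at 1 month was 9.14, 8.30 and 9.75 in the 3 samples, all below the NP minimum of 10.93, a log2 change of -2.31 ± 0.30 (adjusted p = 1.8e-05, limma, n = 3 and 7). Pkm, the pyruvate kinase of the last glycolytic step, was at 12.12, 11.92 and 12.11 against 12.75, 13.49 and 13.87 in NP (lowest, median and highest). The 3 early samples lay below every NP sample and close to each other, and the log2 change was -1.43 ± 0.30 (adjusted p = 0.0012, limma). In NPK tumours without a stage the Pkm change had been 0.06 against the same NP samples.

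Aldoa was at 12.25, 12.14 and 12.71 at 1 month and from 12.90 to 13.96 in NP with a median of 13.33. Again no early sample reached the NP range, and the log2 change was -1.03 ± 0.24 (adjusted p = 0.0028, limma). Gapdh was at 13.28, 13.21 and 13.57 at 1 month against 13.62, 13.73 and 14.19 in NP, a smaller log2 change of -0.44 ± 0.16 (adjusted p = 0.0386). Pfkl was at 12.40, 11.98 and 12.48 against 12.45, 12.68 and 13.03, so that 2 of 3 early samples were below every NP sample (log2 change -0.42 ± 0.16, adjusted p = 0.0491). The adjusted p of Gapdh and Pfkl was 0.111 and 0.132 with the chip as a random block. Gapdh did not pass without NP replicate 6 or 8 or early replicate 1 or 2 (adjusted p from 0.0594 to 0.163), and Pfkl did not pass without NP replicate 2, 3, 6 or 8, the mean of 4 and 5, or early replicate 1 or 2 (0.0580 to 0.293).

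Ankrd37 had the widest spread among the early samples. It was at 6.56, 7.15 and 9.18 at 1 month and at 9.06, 9.50 and 9.78 in NP (lowest, median and highest), so replicate 3 lay inside the NP range and the others far below it. The log2 change was -1.83 ± 0.45 (adjusted p = 0.0041, limma), and without replicate 1 it was -1.30 with an adjusted p of 0.0534. Car9 was likewise highest in replicate 3, at 8.51, 8.43 and 10.46, with a log2 change of -1.13 (adjusted p = 0.0575). Early replicate 3 was the highest of the 3 samples for 20 of 26 members (76.9%, against 36.3% of all genes). It had the lowest seminal vesicle mean of the 3 (11.03, against 13.84 and 14.52) and the highest basal epithelial mean (12.40, against 11.11 and 11.42).

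The 2 members that rose at 1 month had also risen in NPK without a stage. Ddit4 was at 12.39, 12.56 and 12.46, each above the NP maximum of 11.61, a log2 change of 1.56 ± 0.32 (adjusted p = 0.00098, limma). P4ha2 was at 10.93, 11.10 and 11.23, each above the NP maximum of 10.76, a log2 change of 1.01 ± 0.27 (adjusted p = 0.0077), which was 0.62 (adjusted p = 0.122) without the chip of NP replicates 1 to 5. Pfkp was at 9.80, 9.68 and 10.17, also above every NP sample, with a log2 change of 0.76 and an adjusted p of 0.0582.

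The comparison at 1 month was also fitted with the seminal vesicle and skeletal muscle marker means as covariates. The muscle mean alone parts this group from NP (9.21 to 9.64 against at most 7.00), so in that fit marker level and group can hardly be told apart, and the part of these tissues in the calls was not tested. There 2 members passed, Pfkp at 2.10 (adjusted p = 0.0150) and Kdm3a at 0.84 (adjusted p = 0.0484), and none of the 8 above did. The fitted log2 changes in that fit were -1.09 for Aldoc, -0.39 for Pkm, -0.64 for Aldoa, 0.96 for Ddit4 and 1.37 for P4ha2, the last larger than without the covariates but with an SE of 0.53 in place of 0.27. Ankrd37 and Pfkl turned to 0.09 and 0.03. The median log2 change of the members was 0.42 in that fit, in place of -0.31, with 0.00 for all genes. All genes that passed numbered 1419 in that fit, against 4715 without the covariates.

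**Figure D3:**
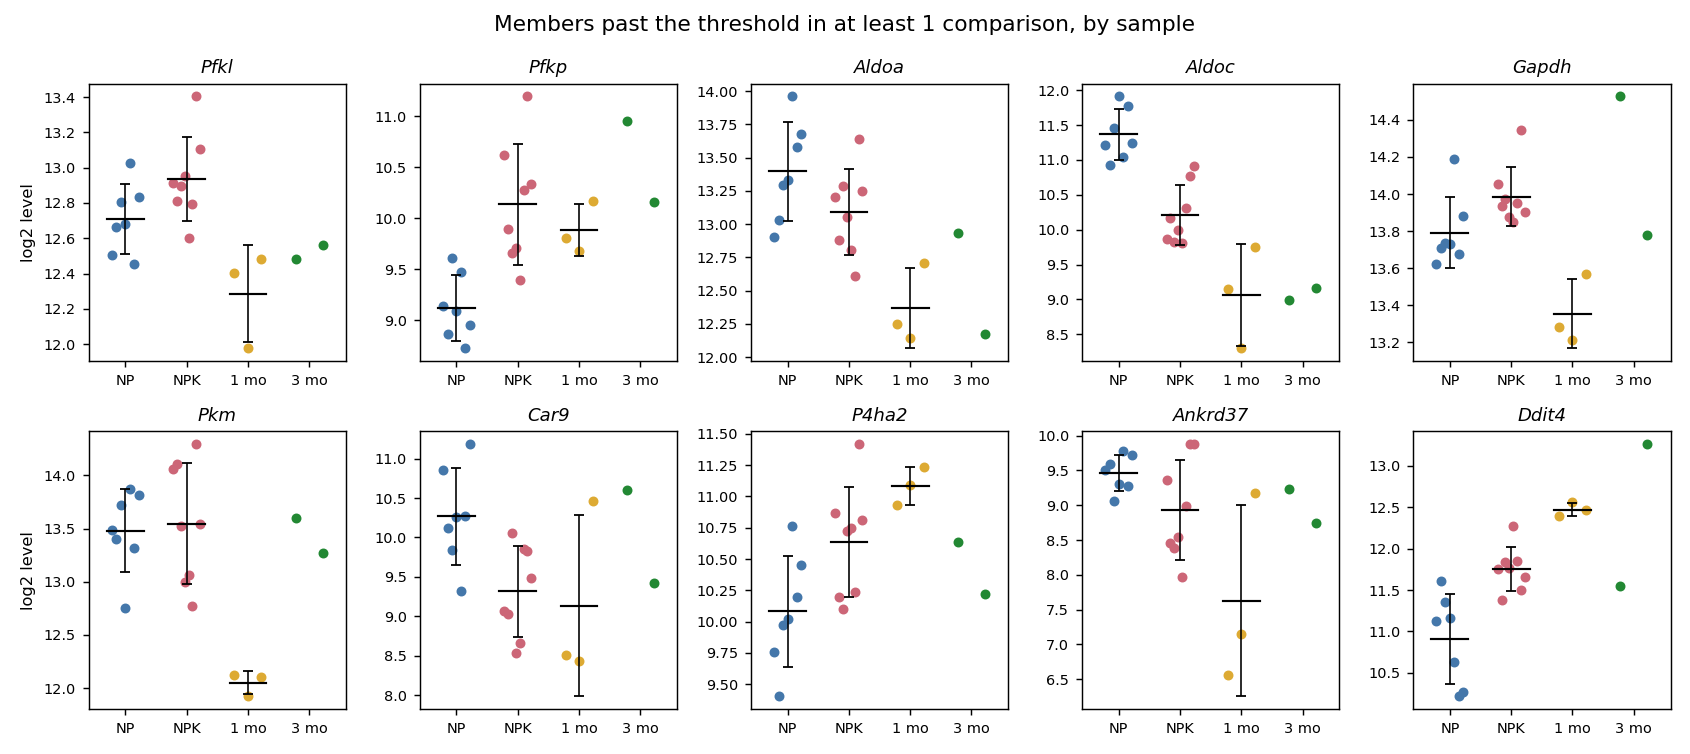
Log2 level (vertical axis, a separate scale in each panel) of the members past the threshold in at least 1 comparison, by group (horizontal axis). Points are samples, lines are group means and bars are SD, with no mean or bar for the 2 samples at 3 months. Aldoc separates NP from all other groups, and Pkm dips at 1 month and stands at 13.60 and 13.27 at 3 months.

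Late tumours were compared with early tumours within NPK, using the same 1-month samples. At 3 months 2 members rose, Pkm and Gapdh, and 0 fell of 26, where 19.2% of all genes passed, 9.42% higher and 9.75% lower. At an unadjusted p under 0.05 (limma) 7 members were higher and 0 lower, where 15.6% of all genes were higher and 15% lower. A fitted change above 0 was seen for 24 of 26 members (92.3%), against 51.1% of all genes tested. The median log2 change was 0.52 for the members and 0.02 for all genes, and with arrays scaled on their medians it was 0.84 and 0.15, with 1713 genes higher and 867 lower in place of 1184 and 1226. All 15 glycolysis members had a change above 0, from 0.01 for Aldoc to 1.38 for Pkm.

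Pkm was at 13.60 and 13.27 in the 2 late samples, both above every early sample (at most 12.12) and inside the NP range. The fitted log2 change was 1.38 ± 0.39, a 2.61-fold difference (adjusted p = 0.0184, limma, n = 2 and 3). Gapdh was at 14.53 and 13.78, both above the early maximum of 13.57. Its log2 change was 0.80 ± 0.21 (adjusted p = 0.0120), and in a fit of the 5 arrays labelled by month alone the adjusted p was 0.122. Without late replicate 1 neither passed, with changes of 1.22 (adjusted p = 0.160) and 0.43 (adjusted p = 0.307), and without late replicate 2 the number of members that passed was 5. Each of these fits holds 1 late sample, whose spread is taken from the other groups. Pkm also did not pass without early replicate 2 (adjusted p = 0.0521).

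Several members came close to the threshold from the same side. Hk1 was at 8.54 and 7.72 in the late samples against 6.54, 6.91 and 7.28 in the early ones, a log2 change of 1.22 ± 0.43 (adjusted p = 0.0527, limma). Tpi1 was at 14.43 and 13.88 against 13.26, 13.17 and 13.77, a log2 change of 0.75 (adjusted p = 0.0572). P4ha1 was at 8.98 and 8.51 against 7.33, 7.71 and 8.14, a log2 change of 1.01 (adjusted p = 0.0705). In each of these genes no late sample overlapped with an early one, where 25.3% of all genes were higher and 24.3% lower without overlap.

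Adm was at 7.59 and 6.76 in the late samples against 5.62, 5.14 and 6.19 in the early ones, the highest fitted log2 change of the list (1.53 ± 0.72) with an adjusted p of 0.159. It was well above background on 2 of 3 early arrays and on both late ones. Vegfa was at 11.73 and 10.50, so replicate 1 was above the early maximum of 10.54 and replicate 2 was not. Of the 25 other probes that read these genes, 23 had a fitted change above 0 at 3 months against 1 month, from -0.54 for P4ha2 to 1.48 for Pkm.

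The late samples were also read singly, since they differed from each other more than any other pair of replicates (SD of log2 differences 0.846). Both were above all early samples for 11 of 26 members (42.3%, against 25.3% of all genes). Both were below for 1 member, P4ha2 (3.85%, against 24.3% of all genes), which was at 10.63 and 10.22 against 10.93 to 11.23. Replicate 1 was above all early samples for 20 members (76.9%, against 39.3% of all genes) and replicate 2 for 14 (53.8%, against 36.1%). Replicate 1 was the higher of the 2 for 19 members, with a median log2 difference of 0.45 over the members and -0.01 over all genes. The 2 samples were over 2-fold apart for 6 members (23.1%, against 13.4% of all genes): Slc2a1, Pgk1, Pgam1, Vegfa, Car9 and Ddit4.

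Ddit4 was the 1 member whose late samples lay on opposite sides of all early samples, which 9.41% of all genes did. It stood at 11.55 in late replicate 1 and at 13.26 in replicate 2, around early levels of 12.39 to 12.56. In the other 5 of these genes replicate 1 was the higher. Slc2a1 was at 13.20 in replicate 1 and at 12.16 in replicate 2, inside the early range of 11.91 to 12.25. Car9 was at 10.61 in replicate 1, above the early maximum of 10.46, and at 9.43 in replicate 2, inside the early range.

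Cell markers differed between the late samples and from the early ones. Luminal and general epithelial, seminal vesicle and skeletal muscle means were lower in both late samples than in the early ones, by the values above, and cell cycle markers (8 genes) were at 10.80 and 10.64 against 7.69 to 8.81. Of 5 T and NK cell markers, 5 were not well above background on either late array. Adjusted for the same 2 marker means, 0 members passed in this comparison (Pkm 0.50, adjusted p = 0.562, and Gapdh 0.55, adjusted p = 0.292), and 1532 of all genes did, against 2410 without them. The median log2 change of the members was -0.15 in that fit, in place of 0.52, with 0.01 for all genes. The muscle mean parts the late from the early samples too, and the part of these and the other cell types in the result was not tested.

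**Figure D4:**
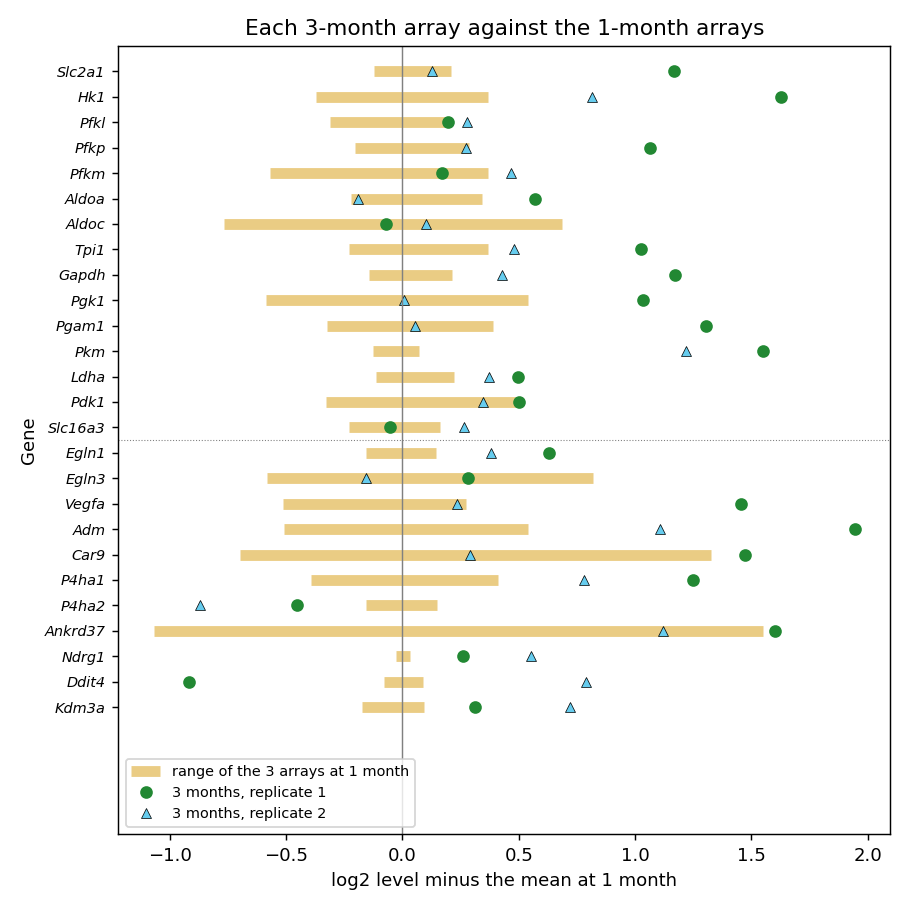
Log2 level of each of the 2 late samples minus the mean of the 3 early samples (horizontal axis) for the 26 members (vertical axis). Bars span the early samples, circles are late replicate 1 and triangles are late replicate 2. Circles lie beyond the bar on the high side for 20 members and triangles for 14, and the marks for Ddit4 lie on opposite sides of its bar.

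Genes that act on the same pathways were read from fixed lists of genes that are not members, against 33.3% of all genes past the threshold in NPK against NP, 37.5% at 1 month against NP and 19.2% at 3 months against 1 month. In the HIF pathway list (10 genes tested) 2 genes rose and 2 fell in NPK against NP (40%), with a median log2 change of 0.03. Hif1a, the widely expressed alpha subunit, differed by -0.04 (adjusted p = 0.845), at 8.51 to 9.34 in NP and 8.65 to 9.22 in NPK. Vhl, which tags the alpha subunits for breakdown, was lower by a log2 value of -1.20 ± 0.28 (adjusted p = 0.0035, limma), but was well above background on 1 of 8 NPK arrays, so NP was at least 1.49-fold higher. The 3 NP samples on the second NP chip stood at 7.21, 7.51 and 7.21 and the other 4 between 5.38 and 6.50. Egln2, another oxygen sensor, fell by 0.41 on the log2 scale (adjusted p = 0.0275), and Hif3a, an alpha subunit with inhibitory splice forms, rose by 0.91 (adjusted p = 0.0332).

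At 3 months against 1 month 1 gene of that list rose and 2 fell (30%, against 19.2% of all genes). Hif1a was at 11.46 and 10.94 in the late samples and at 9.04, 9.30 and 9.96 in the early ones. Both late samples were above every other sample of the study, and the log2 change was 1.77 ± 0.26, a 3.40-fold difference (adjusted p = 0.00013, limma). Adjusted for the mean levels of seminal vesicle and muscle markers, it was 1.04 with an adjusted p of 0.053. Epas1, the alpha subunit best known from endothelium, moved the other way, from 6.24, 6.69 and 6.50 to 4.86 and 5.48. It was not well above background on either late array, so the early level was at least 1.88-fold higher (log2 change -1.30 ± 0.25, adjusted p = 0.0013). Hif3a fell by 1.66 on the log2 scale (adjusted p = 0.0442), and was above background on 1 of 2 late arrays.

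At 1 month against NP 2 genes of the list rose and 2 fell (40%, against 37.5%). Arnt, the constant partner of the alpha subunits, was at 9.88, 10.06 and 9.90 against 7.78 to 9.23 in NP, with no overlap and a log2 change of 1.34 ± 0.27 (adjusted p = 0.0010, limma). The mean of all detected Arnt probes gave 0.29 with an adjusted p of 0.109. Egln2 fell by 0.93 on the log2 scale (adjusted p = 0.00070), and Vhl was not well above background on any of the 3 early arrays, so NP was at least 2.06-fold higher (adjusted p = 0.0050).

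**Figure D5:**
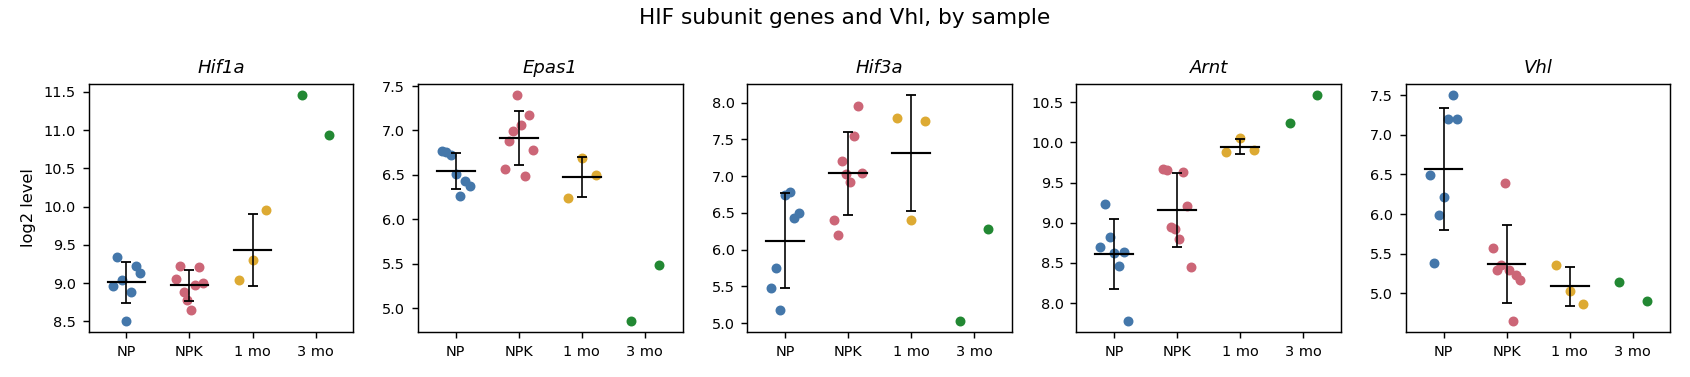
Log2 level (vertical axis, a separate scale in each panel) of Hif1a, Epas1, Hif3a, Arnt and Vhl by group (horizontal axis). Points are samples, lines are means and bars are SD where a group has over 2 samples. The 2 late samples are the highest of all for Hif1a (11.46 and 10.94) and the lowest of all for Epas1 (4.86 and 5.48).

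Among other HIF targets (32 genes tested) 4 rose and 9 fell in NPK against NP (40.6%, against 33.3% of all genes), with a median log2 change of 0.02. The 9 include Pfkfb3, which was well above background on 0 of 8 NPK arrays, so no direction is given for it. Plod2, a collagen lysyl hydroxylase, was at 5.57 to 7.23 in NP and 7.26 to 8.44 in NPK without overlap, a log2 change of 1.70 ± 0.29 (adjusted p = 0.00029, limma). Lox, which cross-links collagen, was at 7.54 to 9.65 in NP and 8.73 to 11.65 in NPK, a log2 change of 2.10 ± 0.37 (adjusted p = 0.00036). Rora, a nuclear receptor, fell by 0.66 on the log2 scale (adjusted p = 0.00056). Lox at 1 month was at 11.62, 12.74 and 11.58, a log2 change of 3.52 ± 0.49 against NP (adjusted p = 3.9e-05), while Cxcr4, a chemokine receptor, fell by 1.84 and Fam162a, a mitochondrial HIF target, fell by 1.22. In that comparison 6 of the list rose and 9 fell (46.9%, against 37.5%).

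At 3 months against 1 month 5 other HIF targets rose and 5 fell (31.2%, against 19.2%). Stc1, a secreted glycoprotein, was at 9.88 and 10.84 in the late samples against 5.64, 6.46 and 6.48 in the early ones, a log2 change of 4.16 ± 0.59 (adjusted p = 9.6e-05, limma), with both late samples above every other sample of the study. Rora fell by 2.05 on the log2 scale (adjusted p = 7.6e-06). Pfkfb4, an isoform of the enzyme that sets the level of the phosphofructokinase activator, is held by this list and by the list of other glycolysis genes. It rose by 0.56 in NPK against NP (adjusted p = 0.0018) and fell by 0.93 at 3 months against 1 month (adjusted p = 0.0046).

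Among other glycolysis isozymes and regulators (10 genes tested), 1 rose and 1 fell in NPK against NP (20%), 2 rose and 1 fell at 1 month against NP (30%), and 1 rose and 2 fell at 3 months against 1 month (30%). The fall in NPK against NP was Pfkfb3. It was well above background on 0 of 8 NPK arrays and 6 of 8 NP arrays, so no direction is given for it. Pgam2, the muscle phosphoglycerate mutase, was at 9.44, 9.24 and 8.02 at 1 month and 5.30 and 5.97 at 3 months, and was well above background on 2 of 8 NP arrays. The early level was at least 10.0-fold above NP (adjusted p = 0.00016, limma) and at least 8.73-fold above the late level (adjusted p = 0.0071). Eno3, the muscle enolase, was at 9.94, 9.71 and 9.16 at 1 month, 1.96 ± 0.33 on the log2 scale above NP (adjusted p = 0.00020), and stood at 11.00 and 10.55 in the late samples, a log2 change of 1.17 from 1 month that did not pass (adjusted p = 0.0687). Slc2a3, a high-affinity glucose transporter that is also on the list of HIF targets, was at 10.15 and 9.46 in the late samples against 8.05, 8.57 and 8.03 in the early ones, a log2 change of 1.59 ± 0.49 (adjusted p = 0.0273).

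Genes of pyruvate fate and mitochondrial entry (12 tested) counted 1 rise and 2 falls in NPK against NP (25%), 5 rises and 3 falls at 1 month against NP (66.7%), and 0 rises and 1 fall at 3 months against 1 month (8.33%). Dld, the shared subunit of the mitochondrial dehydrogenase complexes, was well above background on all 8 NP arrays and 2 of 8 NPK arrays, so NP was at least 1.98-fold higher (adjusted p = 0.00033, limma). The other fall in NPK against NP was Ldhc, a lactate dehydrogenase gene. It was well above background on 0 of 8 NPK arrays and 5 of 8 NP arrays, so no direction is given for it. Bsg, the chaperone of lactate transporters, rose by 0.71 on the log2 scale (adjusted p = 0.0046). At 1 month Pdk2, a pyruvate dehydrogenase kinase, fell by 1.66 and Pdha1, a subunit of pyruvate dehydrogenase, rose by 0.89 on the log2 scale (adjusted p = 0.00019 and 0.00047). Pdk4, another kinase of pyruvate dehydrogenase, was lower by a log2 value of -1.88 at 3 months (adjusted p = 0.0396), and was well above background on 1 of 2 late arrays.

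The pentose phosphate list (6 genes tested) had 0 rises and 0 falls in NPK against NP in limma, and 0 genes at an unadjusted p under 0.05. At 1 month against NP 3 of 6 passed (50%): 2 rose, among them Pgls, the lactonase of the oxidative branch, by 1.09 on the log2 scale (adjusted p = 1.3e-05), and 1 fell, H6pd of the endoplasmic reticulum, by 0.88. At 3 months against 1 month 1 rose and 2 fell (50%). The gluconeogenesis and glycogen list (9 genes tested) had 0 and 0, 2 and 1, and 0 and 1 rises and falls in NPK against NP, at 1 month against NP (33.3%) and at 3 months against 1 month (11.1%), with 0 genes at an unadjusted p under 0.05 in NPK against NP. Its largest change was Fbp2, the muscle fructose bisphosphatase, which fell by 3.08 on the log2 scale at 3 months (adjusted p = 0.0042).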

How the data were processed

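RNA from mouse prostate tumours was hybridised to 21 Illumina bead arrays, 1 per labelled sample; NP replicates 4 and 5 entered as 1, which leaves 20. The deposited intensity table holds linear bead intensities for 45126 probes, from which the authors had subtracted background, as values below 0 show, and which are not normalized between arrays. The authors' deposited value table holds log2 values, whose transform and centring stay unknown; it served only as an alternative. BeadStudio and lumi are named, without versions, in the submitters' processing notes.

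From the intensities, a normal-exponential background model was applied per array (background mean 0, noise SD 8.59 to 26.1 taken from values below 0), 16 was added, and log2 was taken after quantile normalization between arrays. Detected, or well above background, means a probe brighter than all but a share of 0.01 of the noise. The 24217 probes detected on 3 or more arrays entered, and each of 12570 genes was read by its brightest probe with 1 symbol. Symbols came from the platform annotation, updated through a RefSeq table (78 IDs unmatched). Fold bounds compare the mean of the brighter group with the mean of the dim group after raising each dim value to at least its array's detection floor.

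Groups were taken from titles and genotype labels. The test was limma (version 3.58.1, R 4.3.3), 1 linear model over 4 groups and 20 samples with 16 residual degrees of freedom and moderated variances. P-values are two-sided and adjusted by Benjamini-Hochberg over all genes. The number of arrays limits the precision. On data simulated with independent errors from the real means and spreads, 200 of 12570 genes were changed by a log2 value of 1. Of these, 71.5%, 27.5% and 53.5% were recovered for NPK against NP, 3 months against 1 month and 1 month against NP. In the real data 33.3%, 19.2% and 37.5% of genes passed, in the same order. The simulated rates therefore do not give the power of the real fits. The members and the gene lists were chosen with earlier results of these data known. The genes named with values are the members, and of each other list up to 3 genes with the smallest adjusted p among those past the threshold, with Hif1a in NPK against NP and Eno3 at 3 months added after their values were seen. Scaling, offset, filters, probe choice, array weights, chip, replicate block, marker covariates, left-out samples or chips and the authors' values were tried as alternatives.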

Additional observations from a re-analysis of the deposited data

Results flagged for a closer look

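In 52 groups of values (26 members in NP and in NPK), 2 had a sample far from the others by Dixon's criterion, which chance alone meets in about 1 of 20 groups. Both were NPK replicate 7. Gapdh stood at a log2 level of 14.35 there, against 14.06 for the next NPK sample, a gap of 0.581 of the group's range. Ndrg1 stood at 12.67, against 10.92 for the next, a gap of 0.699 of the range. The 3-month group (2 samples) and the 1-month group (3 samples) were too small for this criterion.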

How the results depend on the processing

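Of 857 member values refitted for NPK against NP, 801 kept their side of the threshold. The counts were 441 of 467 for 3 months against 1 month and 539 of 597 for 1 month against NP. A sign was read only where a value passed in either fit, so members that did not pass could change sign and still count as kept. For NPK against NP, the members that passed kept their call in 32 (Pfkp), 30 (Aldoc), 28 (Ddit4), 17 (Car9) and 14 (P4ha2) of 33 fits. For NPK against NP (5 members passed), 8 passed with median scaling, 3 with the chip as a random block, 2 with the marker covariates, 3 without the chip of NP replicates 6 to 8, 2 without the chip of NPK replicates 1 to 5, 1 on the chips of 1 barcode series, and 3 to 6 with a sample left out. The counts of all genes (4186 as reported) were 2390 with the chip block, 2158 with covariates, 2768 and 2134 without those chips, and 1615 on 1 barcode series. Pfkp was lost with median scaling alone (0.55, adjusted p = 0.0882). Pfkm turned from 0.07 to -0.40 with median scaling, and Ldhc, outside the list, from -0.92 to 0.44 with no filter on dim probes. For 3 months against 1 month (2 members), 4 passed with median scaling, 4 with probes detected on at least 11 arrays, 5 with the mean of probes, 4 with NP replicates 4 and 5 kept apart, 4 with the chip block, 0 with covariates, 1 on the arrays labelled by month alone, 1 with the authors' values, and 0 to 5 with a sample left out. All genes (2410) numbered 1532 with covariates, 1338 on the arrays labelled by month, 1411 with the authors' values and 1111 to 2199 with a sample left out, the lowest without late replicate 1. For 1 month against NP (8 members), 15 passed with array weights, 2 with covariates and 5 to 11 with a sample left out; all genes fell from 4715 to 1419 with covariates. With covariates Pfkl turned to 0.028, Ankrd37 to 0.092 and Kdm3a to 0.84. Of the named genes outside the list, 319 of 360, 176 of 233 and 377 of 410 values kept direction and side in the same order of comparisons. The cause of these shifts was not tested. Same-numbered samples of NP and NPK did not deviate together (correlations from -0.13 to 0.08, 0 of 8 pairs over 0.1). The numbers were therefore not used as pairs in the main fit, though low correlations cannot exclude a pairing. With the replicate number as a block 5, 3 and 7 members and 4289, 2042 and 3656 genes passed. Chip and genotype cannot be told apart, 2 late samples limit the stage comparison, and dim probes (Slc16a3, Adm, Vhl, Dld, Ldhc, Pfkfb3) carry little signal over background.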
